A study of Mus musculus with 24 samples.

Results

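The genes described here make lactate, carry it out of the cell and handle the acid that goes with it. They are 8 genes of the 55487 listed, taken by name: the lactate dehydrogenase subunits Ldha and Ldhb, the monocarboxylate transporters Slc16a1 (MCT1) and Slc16a3 (MCT4), their chaperone Bsg (basigin), and the carbonic anhydrases Car3, Car9 and Car12. All 8 passed the filter on low values. RNA was sequenced from myotubes of C2C12, an immortalised mouse myoblast line that fuses into multinucleated, contractile fibres. The study compared the response of myotubes to low O2, with and without contraction. All cells were wild type (WT), were grown and differentiated under 5 % O2, were labelled day 5, and were exposed for 2 h to 5 % or 1 % O2. The 4 groups of 6 libraries were unstimulated myotubes under 5 % O2 (5 % CTRL) or 1 % O2 (1 % CTRL), and myotubes stimulated electrically in bouts under 5 % O2 (5 % STIM) or 1 % O2 (1 % STIM). Every group came from 1 cell line in culture, without nerve, blood flow or other tissues, and the study describes the replicates as biological. All myotubes received fresh medium before the exposure. For stimulated wells a change before and after the bouts is also described, and whether the controls had the one after it is not stated in the sources used here. The study places the 2 h before the bouts and takes RNA of stimulated myotubes immediately after them. The time at the O2 level may therefore differ between stimulated and control myotubes.

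Glycolysis ends in pyruvate, which lactate dehydrogenase reduces to lactate while it regenerates NAD+. The enzyme is a tetramer of A (muscle) and B (heart) subunits. Monocarboxylate transporters move lactate together with a proton across the plasma membrane. MCT1 has a high affinity for lactate and serves uptake as well as release, MCT4 is the export form of glycolytic muscle, and both need basigin to reach the membrane. Carbonic anhydrases interconvert CO2 and bicarbonate and so buffer protons. Car3 is an abundant cytosolic form in muscle with low activity, whereas Car9 and Car12 sit in the membrane with the active site outside the cell. Ldha, Slc16a3 and Car9 are textbook targets of hypoxia-inducible factors.

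Libraries held 26541858 to 28173745 reads. The size factors by which the authors divided the counts lay between 0.955 and 0.992 under 5 % O2 and between 1.02 and 1.05 under 1 % O2, so they moved with O2. When the libraries were instead rescaled to the same total, the share of called genes that were higher went from 49.0 % to 62.7 % in 1 % CTRL against 5 % CTRL, from 50.4 % to 63.2 % in 1 % STIM against 5 % STIM, from 44.0 % to 62.1 % in 5 % STIM against 5 % CTRL and from 51.4 % to 62.4 % in 1 % STIM against 1 % CTRL. Replicate 1 of 1 % CTRL stood apart from its group, with 1 minus its correlation to that group at 0.0119 against 0.00541 to 0.00774 in the other libraries. All 10 myotube markers were expressed, and their summed normalized count ran from 489985 to 533855 in 5 % CTRL and 433179 to 472443 in 1 % CTRL. In 5 % STIM it ran from 445674 to 512196, and in 1 % STIM from 423987 to 469807. Of these markers, 6 fell under 1 % O2 without stimulation and 7 with it, 2 fell with stimulation at either O2 level, and none rose. The 4 myoblast markers summed to between 1755 and 2679 in every library, with 2 higher and 1 lower in each comparison but 1 % STIM against 1 % CTRL, where 1 was higher and 1 lower, and the 5 adipocyte markers to at most 10.3, with 2 of them at 0 throughout. Sums did not pass 15.2 for the 3 endothelial markers, 70.5 for the 3 leukocyte markers and 14.3 for the 3 erythroid markers. The part of these markers in the results was not tested, and in bulk RNA fewer cells of a type and less RNA per cell cannot be told apart.

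Under 1 % O2 without stimulation, 2 of the 8 genes rose (Slc16a3 and Ldha) and 5 fell (Slc16a1, Car12, Car3, Ldhb and Car9), while Bsg did not pass the test. Genes were called at a Benjamini-Hochberg adjusted p under 0.05 in a limma fit over all 14541 genes tested. By that rule 59.9 % of all genes were called in this comparison (29.4 % higher, 30.5 % lower), so the count of 7 called is read against a large background. The members' median log2 fold change was -0.17, against 0.00 for all genes, and ran from -0.39 to 1.50. In 4 of the 8 (Ldha, Slc16a1, Slc16a3 and Car3) the groups did not overlap, against 38.2 % of all genes. With stimulation in both groups, 1 % STIM against 5 % STIM, 2 rose (Slc16a3 and Ldha) and 3 fell (Slc16a1, Car12 and Ldhb), against 57.4 % of all genes called (29 % higher, 28.4 % lower). The groups did not overlap for Ldha, Slc16a1, Slc16a3 and Car12, which is 4 of 8 against 37.3 % of all genes.

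Stimulation alone, 5 % STIM against 5 % CTRL, raised Slc16a1 and lowered Ldha and Car9, which is 3 of 8 against 21.4 % of all genes (9.44 % higher, 12 % lower). Under 1 % O2, 1 % STIM against 1 % CTRL, none of the 8 rose and 5 fell (Slc16a3, Car12, Ldha, Car9 and Bsg), against 22.3 % of all genes (11.5 % higher, 10.8 % lower). The groups did not overlap for 2 members in the first of these comparisons (11.1 % of all genes) and for 3 in the second (11.2 %). The response to stimulation differed between 1 % and 5 % O2 for 2 of the 8, Slc16a3 and Slc16a1, both more negative under 1 % O2, where 11.3 % of all genes passed the test of that difference (5.88 % higher, 5.43 % lower). The members' median log2 fold change was -0.10 in 1 % STIM against 5 % STIM, -0.10 in 5 % STIM against 5 % CTRL and -0.14 in 1 % STIM against 1 % CTRL, where that of all genes was 0.00, -0.01 and 0.00. Each group enters several of these comparisons, so they are not independent of each other.

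**Figure D1:**
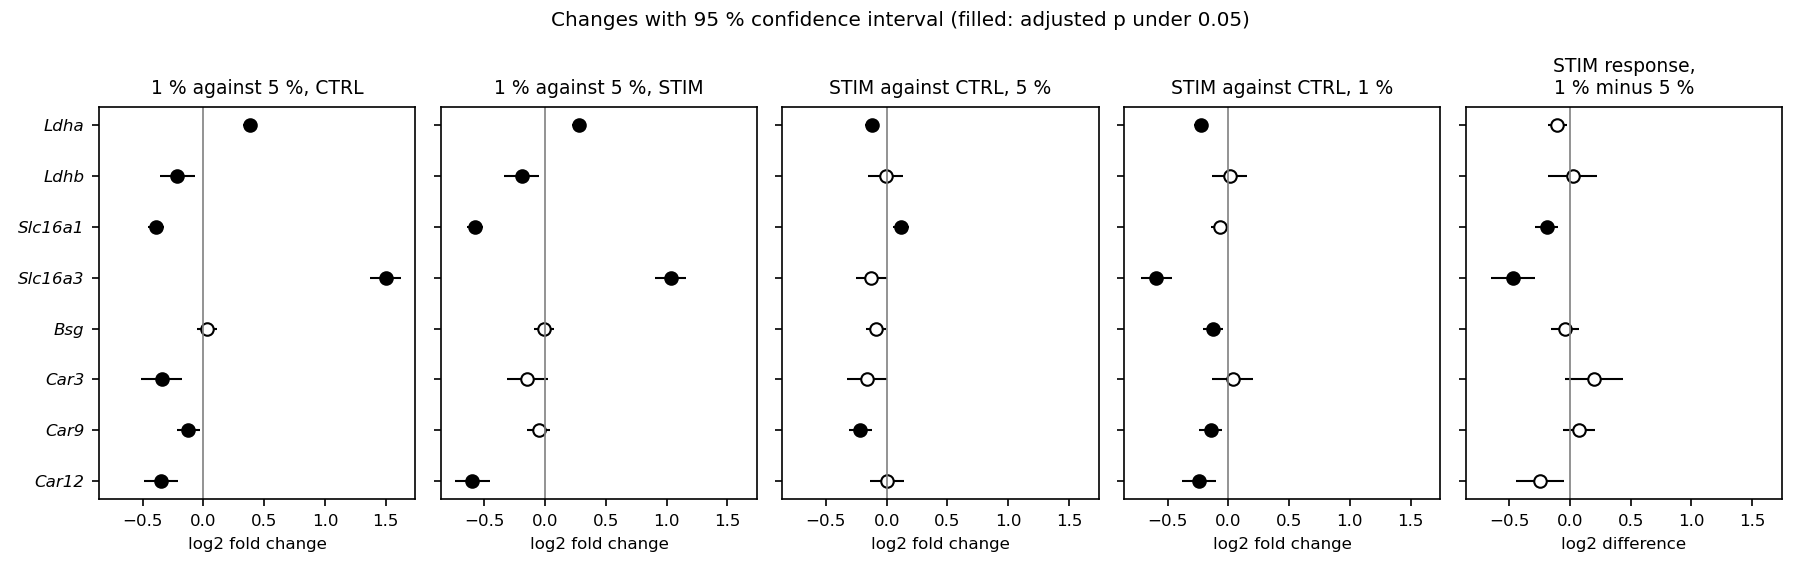
Change of each gene on the log2(normalized count + 1) scale in the 4 comparisons of 2 groups and, at the right, the difference between the responses to stimulation under 1 % and 5 % O2. Points are limma estimates, lines 95 % confidence intervals, and filled points passed the adjusted p of 0.05. Slc16a3 has the largest estimate under 1 % O2, at 1.50 without and 1.03 with stimulation, and the estimates of Slc16a1 and Car12 lie on the other side of 0 in both.

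Promoter windows show where the starts of these genes differ in sequence. Hypoxia-inducible factors bind DNA at the core ACGTG or GCGTG, so these letters were searched on both strands in RefSeq promoter windows (GRCm38.p6, 250 bases before and 50 after a start). The windows cover 6 of the 8 members, with 2 starts for Ldha, and ACGTG was present in 19.6 % of the 32851 windows of all genes. Matches overlapping on both strands count as 1 place, and CACGTG, the E-box core, holds ACGTG on both strands. The upstream start of Ldha held ACGTG at 3 places (48 and 145 bases before the start within CACGTG, and 34 bases before it), a count of 3 or more being found in 0.414 % of windows. Slc16a3 held it at 2 places (27 and 14 bases before the start), as 2.69 % of windows do at least. Slc16a1 also held 2, one within CACGTG 200 bases before the start and one 21 bases into the transcript. In Car9 it was found at 1 place (18 bases before the start, reverse strand). The windows of Ldhb, Car12 and the downstream start of Ldha held none. GCGTG was in 32.4 % of all windows and in those of Ldha (both starts), Ldhb and Slc16a1, but in none of Slc16a3, Car9 and Car12. Bsg and Car3 were not searched. The stretches below hold the upstream matches of the genes with ACGTG, because these include both genes that rose and 2 that fell. Capitals mark ACGTG, or CACGT where it lies on the reverse strand. All run 5′ to 3′ on the + strand, at chr7:46845644-46845803 (Ldha), chr11:120948907-120949057 (Slc16a3), chr3:104638414-104638573 (Slc16a1) and chr4:43506993-43507022 (Car9).
Ldha: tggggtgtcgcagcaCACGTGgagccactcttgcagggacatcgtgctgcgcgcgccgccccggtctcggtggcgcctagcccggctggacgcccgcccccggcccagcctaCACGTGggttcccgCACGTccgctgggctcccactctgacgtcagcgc
Slc16a3: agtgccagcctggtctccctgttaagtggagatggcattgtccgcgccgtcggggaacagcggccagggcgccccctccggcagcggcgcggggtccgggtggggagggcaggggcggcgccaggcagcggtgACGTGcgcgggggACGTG
Slc16a1: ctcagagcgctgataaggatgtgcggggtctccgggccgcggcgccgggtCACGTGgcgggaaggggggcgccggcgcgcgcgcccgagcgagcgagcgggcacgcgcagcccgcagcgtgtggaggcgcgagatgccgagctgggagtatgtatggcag
Car9: ctcctatttccgatgCACGTacagcccgtc
A match describes the letters only and is no evidence of binding. The Ldha stretch lies within the span of 1 longer annotated transcript and outside the annotated UTRs of the gene. In the Slc16a3 stretch 5 bases, and in the Car9 stretch all 30, lie in the 5′ UTR of another annotated transcript of the gene. The Slc16a1 stretch lies outside its annotated transcripts.

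Ldha (ENSMUSG00000063229, chr7:46841475-46855627, + strand, GRCm38) encodes the A subunit, the form that predominates in muscle. It was the most abundant of the 8 genes in each group per kilobase of exon, with 9886 ± 234 normalized counts per kb in 5 % CTRL (mean ± SD, n = 6). In 5 % CTRL its normalized count lay between 31518 and 33564 with a median of 33033, and in 1 % CTRL between 41401 and 44229 with a median of 42117. With stimulation, the range was 29256 to 31023 (median 30061) in 5 % STIM and 34363 to 38592 (median 36475) in 1 % STIM. None of the 4 groups overlapped: every 1 % CTRL library was above every 1 % STIM library, these above every 5 % CTRL library, and these above every 5 % STIM library. Without stimulation Ldha rose under 1 % O2 by a log2 fold change of 0.38 (SE 0.028, adjusted p = 6.4e-14). With stimulation it rose 1.21-fold (log2 0.28, SE 0.028, adjusted p = 1.97e-10). Stimulation lowered it by a log2 change of -0.12 under 5 % O2 (adjusted p = 0.00156) and of -0.22 under 1 % O2 (adjusted p = 9.54e-08). These responses differed by -0.10 (95 % confidence interval -0.18 to -0.02), which did not pass (adjusted p = 0.0815), although it did with DESeq2 on whole reads (-0.10, adjusted p = 0.0421) and after rescaling to equal library totals (-0.12, adjusted p = 0.0464). The counts are per gene, so the starts of Ldha cannot be told apart. Of the 75-base words of its exons, 2.69 % also occurred in other genes, mainly the pseudogenes Gm5452 and Ldha-ps2, which did not exceed 8.18 and 6.79 normalized counts in any library.

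Ldhb (ENSMUSG00000030246, chr6:142490249-142507957, - strand), the B subunit, was present at a small fraction of that level. Its normalized count ran from 407 to 486 (median 456) in 5 % CTRL and from 358 to 422 (median 386) in 1 % CTRL. After stimulation it ran from 348 to 520 (median 463) in 5 % STIM and from 342 to 431 (median 398) in 1 % STIM. The 1 % libraries were lower on average and overlapped the 5 % libraries in both comparisons, and the lowest 5 % STIM library, replicate 1 at 348, lay apart from the other 5 of that group (459 to 520). Ldhb fell under 1 % O2 by 0.21 on the log2 scale without stimulation (SE 0.070, adjusted p = 0.00879) and by 0.19 with it (SE 0.070, adjusted p = 0.0184). Both calls were lost after rescaling to equal library totals (log2 -0.13, adjusted p = 0.0957, and log2 -0.12, adjusted p = 0.131). Stimulation left estimates near 0, with log2 -0.01 (95 % confidence interval -0.15 to 0.13) under 5 % O2 and 0.01 (-0.13 to 0.15) under 1 % O2. The pseudogene Gm5514 shares 12.6 % of the 75-base words of Ldhb and had at most 3.14 normalized counts in a library.

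Within each library, Ldha exceeded Ldhb by a log2 ratio of 6.17 ± 0.071 in 5 % CTRL and 6.76 ± 0.12 in 1 % CTRL (SD, n = 6). Stimulated myotubes had 6.06 ± 0.17 under 5 % O2 and 6.53 ± 0.15 under 1 % O2. In the same order these are ratios of normalized counts of about 72.0, 108.7, 66.7 and 92.3, not corrected for length. Size factors nearly cancel in a ratio within a library. The ratio was higher in 1 % CTRL than in 5 % CTRL in 6 of 6 libraries (difference 0.59, two-sided exact permutation p = 0.00216, the smallest that 6 against 6 allows, adjusted p = 0.00649 over 12 tests of ratios). In 1 % STIM against 5 % STIM the difference was 0.47 (exact permutation p = 0.00433, adjusted p = 0.0104), and 5 of 6 libraries lay above the 5 % STIM group. Stimulation gave a difference of -0.24 under 1 % O2 (exact permutation p = 0.0238, adjusted p = 0.0408), with 4 of 6 libraries below the 1 % CTRL group, and this no longer passed without replicate 1 of 1 % CTRL (-0.20, adjusted p = 0.0714). Under 5 % O2 the difference was -0.11 and did not pass (exact permutation p = 0.180, adjusted p = 0.240), although 5 of 6 libraries lay below the 5 % CTRL group. The exception was replicate 1 of 5 % STIM, which lay apart for Ldhb. When that library was left out, which was decided after seeing the data, the value became -0.18 and passed (exact permutation, adjusted p = 0.00866), and the one in 1 % STIM against 5 % STIM became 0.53. Of the summed count per kb of the 6 dehydrogenases listed (with Ldhc, Ldhd, Ldhal6b and Uevld), Ldha held 96.5 % ± 0.13 in 5 % CTRL and 97.5 % ± 0.13 in 1 % CTRL.

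Slc16a3 (ENSMUSG00000025161, chr11:120948480-120960868, + strand), the lactate exporter MCT4, changed most. Its normalized count was 1119 to 1295 (median 1224) in 5 % CTRL and 3158 to 3693 (median 3413) in 1 % CTRL. In stimulated myotubes it was 918 to 1212 (median 1129) under 5 % O2 and 2062 to 2613 (median 2198) under 1 % O2. Both 1 % groups lay above all 5 % libraries, 1 % STIM lay below every 1 % CTRL library, and the 2 groups under 5 % O2 overlapped. Slc16a3 rose 2.83-fold under 1 % O2 without stimulation (log2 1.50, SE 0.062, adjusted p = 4.93e-17) and 2.05-fold with it (log2 1.03, SE 0.062, adjusted p = 1.48e-13). Under 1 % O2 stimulation lowered it by a log2 change of -0.59 (adjusted p = 4.08e-08), and under 5 % O2 the change of -0.13 did not pass (adjusted p = 0.157). The difference between those responses passed the test (-0.47, SE 0.088, adjusted p = 0.000716). No 75-base word of its exons occurred in another gene, and the nearest gene on the opposite strand, Csnk1d, lies 880 bases away.

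Slc16a1 (ENSMUSG00000032902, chr3:104638668-104658462, + strand), the high-affinity carrier MCT1, moved the other way with O2. Counts ran from 2632 to 2910 (median 2798) in 5 % CTRL and from 2061 to 2203 (median 2120) in 1 % CTRL. They were 2865 to 3126 (median 3035) in 5 % STIM and 1898 to 2162 (median 2008) in 1 % STIM. Every 1 % library was below every 5 % library, whereas stimulated and unstimulated libraries overlapped at both O2 levels. Slc16a1 was 1.31-fold lower under 1 % O2 without stimulation (log2 -0.39, SE 0.032, adjusted p = 1.8e-12) and 1.50-fold lower with it (log2 -0.58, SE 0.032, adjusted p = 8e-17). Stimulation raised it under 5 % O2 (log2 0.12, adjusted p = 0.00733) and gave -0.07 under 1 % O2, which did not pass (adjusted p = 0.111). These responses differed by -0.19 (SE 0.046, adjusted p = 0.00481).

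The order of the transporters therefore depended on the group. Per kb of exon, Slc16a1 had 630 ± 21 and Slc16a3 had 227 ± 14 normalized counts in 5 % CTRL (SD, n = 6). In 1 % CTRL they had 481 ± 14 and 642 ± 33, with no overlap between the genes in either group. In 5 % STIM the values were 684 ± 21 and 209 ± 20, and in 1 % STIM 458 ± 22 and 427 ± 40, where the libraries of the genes overlapped. The ratio of Slc16a3 to Slc16a1 counts was 0.433 in 5 % CTRL and 1.60 in 1 % CTRL, and after stimulation 0.365 under 5 % O2 and 1.12 under 1 % O2. On the log2 scale it differed by 1.89 without and 1.61 with stimulation between 1 % and 5 % O2, with all 6 libraries beyond the other group each time (exact permutation p = 0.00216, adjusted p = 0.00649 for each). Stimulation lowered the log2 ratio by 0.52 under 1 % O2 in 6 of 6 libraries (-0.52, exact permutation p = 0.00216, adjusted p = 0.00649) and by 0.25 under 5 % O2 with 3 of 6 libraries below the other group (-0.25, exact permutation p = 0.0195, adjusted p = 0.0390).

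**Figure D2:**
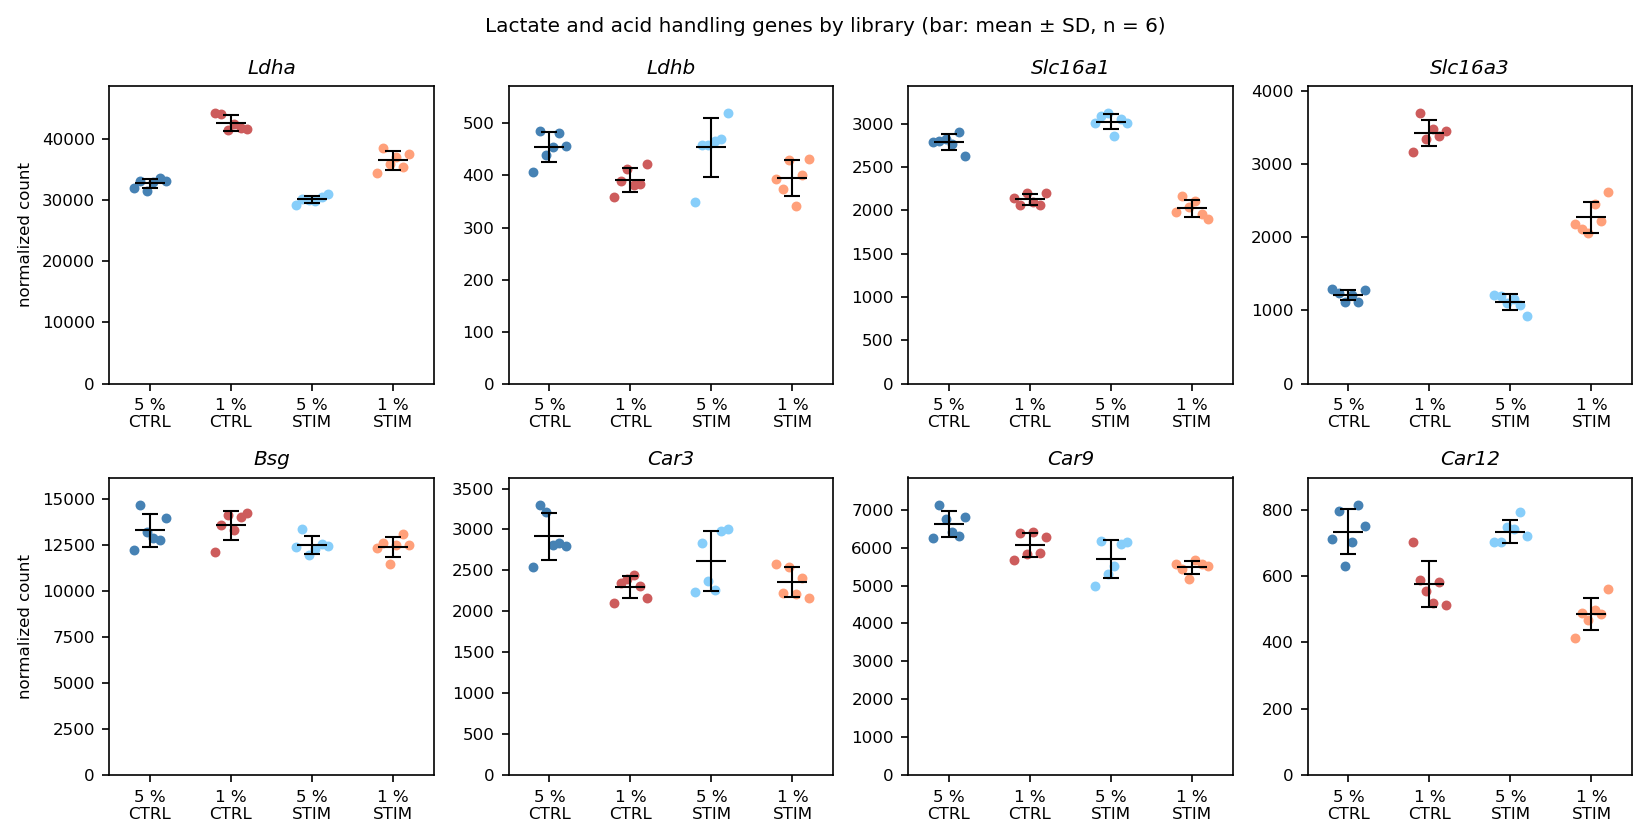
Normalized count of each gene in every library by group, on linear axes that start at 0 (points: libraries; bars: mean ± SD, n = 6). The 4 groups of Ldha do not overlap, both 1 % groups of Slc16a3 lie above all 5 % libraries, both 1 % groups of Slc16a1 lie below them, and the groups of Bsg overlap.

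**Figure D3:**
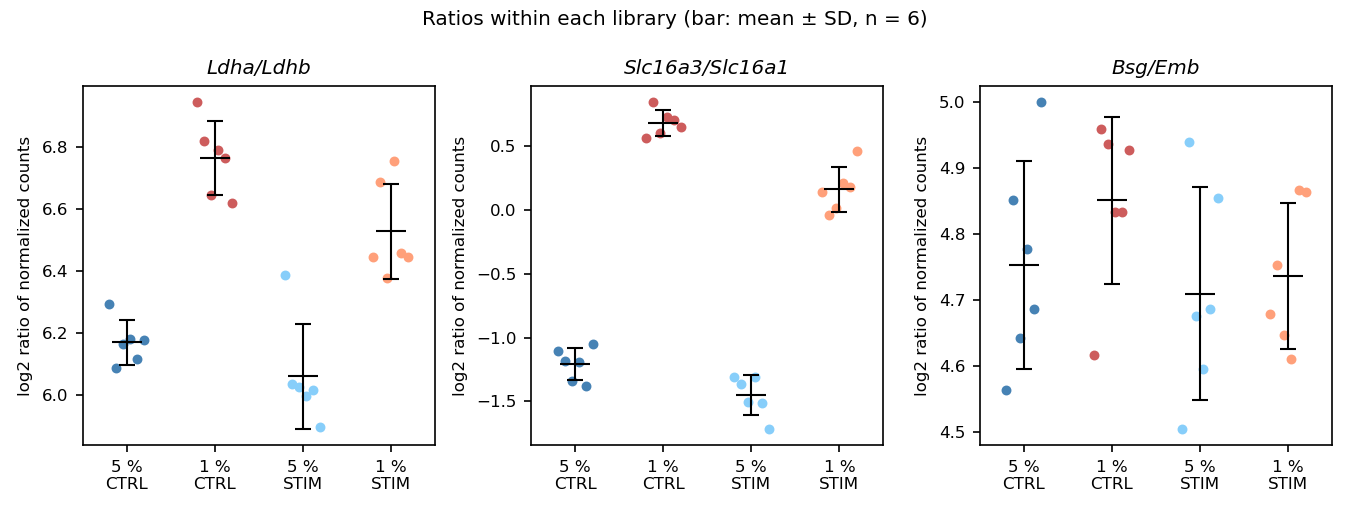
The log2 ratio of normalized counts in each library for Ldha to Ldhb, Slc16a3 to Slc16a1 and Bsg to Emb (points: libraries; bars: mean ± SD, n = 6; the axes do not start at 0). The ratio of Slc16a3 to Slc16a1 is below 0 in all 5 % libraries and above 0 in all 1 % CTRL libraries, and the Bsg to Emb ratios overlap in all groups.

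Among the 14 monocarboxylate transporters of the SLC16 family, 8 passed the filter, and in 1 % CTRL against 5 % CTRL 5 of them rose and 2 fell, with a median log2 fold change of 0.41. Of all genes 59.9 % were called there, with a median of 0.00. The proton-linked lactate carriers MCT1 and MCT4 made up most of the family's count per kb. Slc16a1 held 61.4 % ± 1.9 in 5 % CTRL and 35.1 % ± 1.5 in 1 % CTRL, whereas Slc16a3 held 22.1 % ± 1.3 and 46.9 % ± 1.3. Slc16a6, known as a carrier of ketone bodies, went from 22.4 to 32.7 normalized counts in 5 % CTRL to between 96.9 and 157 in 1 % CTRL, without overlap, and rose by log2 2.23 (SE 0.14, adjusted p = 5.91e-16). With stimulation it rose by log2 1.99 (adjusted p = 1.45e-14). Slc16a13 rose by log2 0.55 (adjusted p = 2.5e-08) from 196 ± 19 to 286 ± 17. Slc16a11 rose by log2 0.46 (adjusted p = 0.00354) from 88.0 ± 14 to 121 ± 15. Slc16a10, an aromatic amino acid carrier, fell by 0.29 (log2 -0.29, adjusted p = 0.0400) under 1 % O2 and rose with stimulation under 5 % O2 (log2 0.34, adjusted p = 0.0464) and under 1 % O2 (log2 0.69, adjusted p = 4.77e-05). In 1 % STIM against 5 % STIM 4 of the 8 rose and 1 fell, in 5 % STIM against 5 % CTRL 2 rose and 1 fell, and in 1 % STIM against 1 % CTRL 2 rose and 1 fell, where 57.4 %, 21.4 % and 22.3 % of all genes were called.

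**Figure D4:**
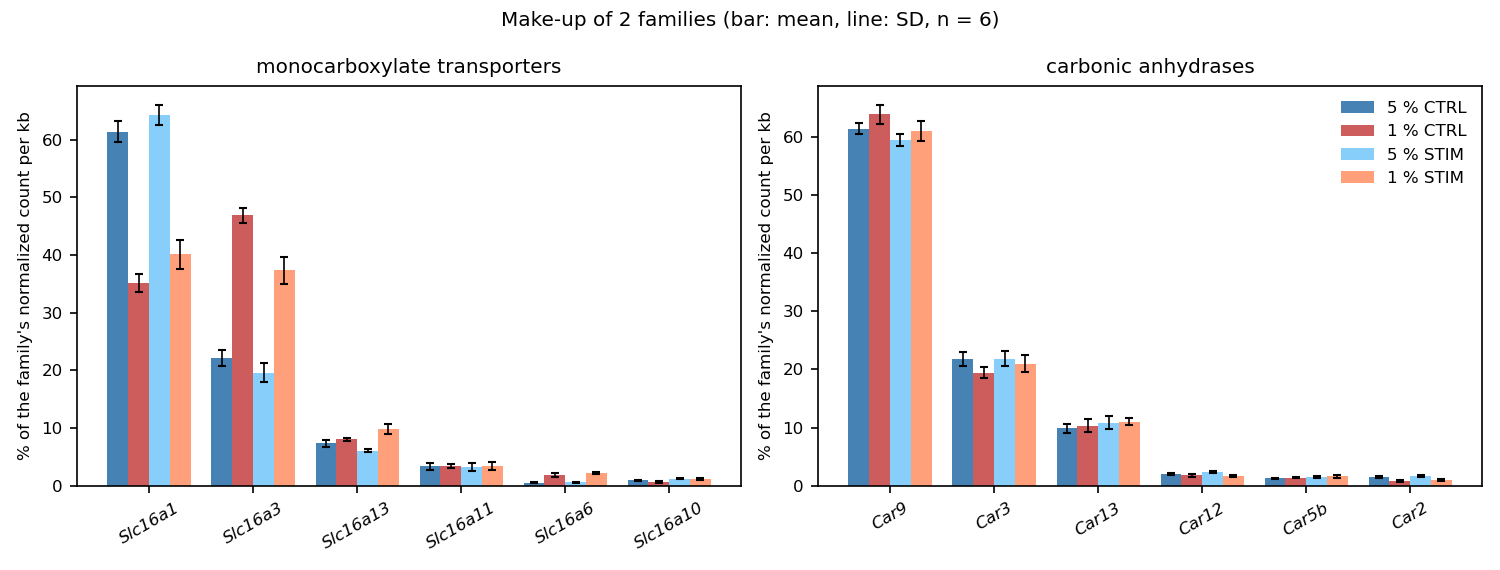
Share of each family's summed normalized count per kb of exon held by 6 of its genes, for 14 monocarboxylate transporters (left) and 16 carbonic anhydrases (right), by group (bars: mean; lines: SD, n = 6; axes start at 0). Slc16a3 goes from 22.1 % in 5 % CTRL to 46.9 % in 1 % CTRL, and Car9 stays between 59.5 % and 63.9 % in the group means. Car9 counts are as listed, and the part of Tpm2 and Gm12454 reads in them was not tested.

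Bsg (ENSMUSG00000023175, chr10:79704491-79711969, + strand), the chaperone that takes MCT1 and MCT4 to the membrane, was the second most abundant member in each group, at 7319 ± 497 normalized counts per kb in 5 % CTRL. Its count ran from 12195 to 14680 (median 13026) in 5 % CTRL and from 12118 to 14217 (median 13792) in 1 % CTRL. After stimulation it ran from 11926 to 13378 (median 12393) in 5 % STIM and from 11433 to 13096 (median 12485) in 1 % STIM. All groups overlapped. The change under 1 % O2 was 0.03 without stimulation (95 % confidence interval -0.05 to 0.11, adjusted p = 0.522) and -0.01 with it (-0.09 to 0.07, adjusted p = 0.856). After rescaling to equal library totals the first became 0.11 and passed (adjusted p = 0.0269). Stimulation lowered Bsg under 1 % O2 (log2 -0.13, SE 0.041, adjusted p = 0.0197), a call that was lost under the same rescaling (-0.11, adjusted p = 0.0744). Under 5 % O2 the change of -0.09 did not pass (adjusted p = 0.128), but did once the trend with gene length was removed (-0.11, adjusted p = 0.00473). Embigin (Emb), the other chaperone of the family, was listed at 491 ± 34 in 5 % CTRL and 469 ± 21 in 1 % CTRL and passed in no comparison (log2 -0.07, adjusted p = 0.324 for these groups). The log2 ratio of Bsg to Emb was 4.75 ± 0.16 in 5 % CTRL and 4.85 ± 0.13 in 1 % CTRL, then 4.71 ± 0.16 in 5 % STIM and 4.74 ± 0.11 in 1 % STIM, and none of its 4 comparisons passed (exact permutation, adjusted p from 0.185 to 0.738). Without replicate 1 of 1 % CTRL, 1 % STIM against 1 % CTRL passed (-0.16, adjusted p = 0.0445).

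Car9 (ENSMUSG00000028463, chr4:43506966-43513729, + strand), the membrane carbonic anhydrase often used as a marker of hypoxia, was not higher under 1 % O2 in these myotubes. Normalized counts ran from 6254 to 7139 (median 6583) in 5 % CTRL and from 5684 to 6414 (median 6061) in 1 % CTRL. They were 4995 to 6179 (median 5811) in 5 % STIM and 5182 to 5676 (median 5537) in 1 % STIM. The highest values were in 5 % CTRL, all stimulated libraries lay below all unstimulated ones at the same O2 level, and groups at 5 % and 1 % O2 overlapped. Under 1 % O2 Car9 fell by 0.12 on the log2 scale without stimulation (95 % confidence interval -0.22 to -0.03, adjusted p = 0.0210). That call was lost without replicate 1 of 1 % CTRL (-0.10, adjusted p = 0.0606) and after rescaling to equal library totals (-0.04, adjusted p = 0.429). With stimulation the change was -0.05 (-0.15 to 0.04, adjusted p = 0.341). Stimulation lowered it by a log2 change of -0.22 under 5 % O2 (SE 0.046, adjusted p = 0.000714) and of -0.15 under 1 % O2 (SE 0.046, adjusted p = 0.0204). Those responses differed by 0.07 (-0.06 to 0.20, adjusted p = 0.538).

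The Car9 locus is crowded. Tpm2, a tropomyosin gene of the sarcomere on the opposite strand, ends 981 bases from it at 80676 ± 3368 normalized counts in 5 % CTRL, and Car9 counts were 8.21 % ± 0.49 of those of Tpm2 in that group. They were 7.55 % ± 0.37 in 1 % CTRL, and in stimulated myotubes 7.19 % ± 0.29 under 5 % O2 and 7.03 % ± 0.49 under 1 % O2. Tpm2 passed in none of the comparisons (log2 0.00, adjusted p = 0.952 in 1 % CTRL against 5 % CTRL). The libraries mark strand, but the counting is described with default settings, which do not use it, so reads from the opposite strand within Car9 exons would be counted for Car9. The antisense gene Gm12454 overlaps 9.29 % of the Car9 exons and was listed at 39.9 ± 7.6 normalized counts in 5 % CTRL and 28.1 ± 9.1 in 1 % CTRL. Over the 24 libraries the Pearson r between the log2 values of Car9 and Tpm2 was 0.488. The part of Tpm2 and Gm12454 in the Car9 values was not tested.

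Car12 (ENSMUSG00000032373, chr9:66713686-66766845, + strand), the other membrane form, fell under 1 % O2. Its count ran from 630 to 816 (median 731) in 5 % CTRL and from 513 to 702 (median 570) in 1 % CTRL. Stimulated myotubes had 702 to 792 (median 731) under 5 % O2 and 414 to 562 (median 488) under 1 % O2. Most 1 % CTRL libraries were below the 5 % CTRL group, with overlap from the highest of them, and all 1 % STIM libraries were below all 5 % STIM libraries. Car12 was 1.28-fold lower without stimulation (log2 -0.35, SE 0.069, adjusted p = 6e-05) and 1.51-fold lower with it (log2 -0.60, SE 0.069, adjusted p = 9.73e-09). Stimulation gave 0.00 under 5 % O2 (95 % confidence interval -0.14 to 0.15, adjusted p = 0.977) and lowered it under 1 % O2 (log2 -0.24, adjusted p = 0.00988). The difference between the responses, -0.25, did not pass (-0.45 to -0.05, adjusted p = 0.105).

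Car3 (ENSMUSG00000027559, chr3:14863512-14872523, + strand), the cytosolic muscle form, fell with O2 in unstimulated myotubes. Counts were 2536 to 3305 (median 2823) in 5 % CTRL and 2103 to 2441 (median 2330) in 1 % CTRL, with every 1 % CTRL library below every 5 % CTRL library. They were 2239 to 3009 (median 2607) in 5 % STIM and 2158 to 2581 (median 2316) in 1 % STIM, and these groups overlapped. Car3 was 1.27-fold lower in 1 % CTRL (log2 -0.34, SE 0.081, adjusted p = 0.000873). The other estimates did not pass: -0.15 for 1 % STIM against 5 % STIM (95 % confidence interval -0.31 to 0.02, adjusted p = 0.130), -0.16 for stimulation under 5 % O2 (-0.33 to 0.01, adjusted p = 0.171) and 0.04 for stimulation under 1 % O2 (-0.13 to 0.20, adjusted p = 0.819). Car3 is also a muscle differentiation product. It fell in 1 % CTRL against 5 % CTRL, in which 6 of the 10 myotube markers fell. In 1 % STIM against 5 % STIM 7 of these markers fell, and the Car3 estimate was also negative but did not pass. The O2 changes of Car3 with and without stimulation were not shown to differ by the limma fit. Their difference was 0.20 (95 % confidence interval -0.04 to 0.43, adjusted p = 0.297). The part of the markers in the Car3 values was not tested.

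Of 16 carbonic anhydrases, 12 passed the filter, and none rose while 7 fell in 1 % CTRL against 5 % CTRL, with a median log2 fold change of -0.12. The 7 of 12 called stand against 59.9 % of all genes called in either direction and 30.5 % called lower, with a median of 0.00. Per kb, Car9 held 61.4 % ± 0.93 of the family's count in 5 % CTRL, Car3 held 21.7 % ± 1.2, and Car12 2.07 % ± 0.21. These shares take the Car9 count as listed, and the part of Tpm2 and Gm12454 reads in it was not tested. Any such reads would raise the share of Car9 and lower those of the other family genes. Car2, the fast cytosolic enzyme, had 160 to 190 normalized counts in 5 % CTRL and 66.2 to 103 in 1 % CTRL, without overlap, and fell by 1.02 (log2 -1.02, SE 0.11, adjusted p = 9.06e-10). With stimulation it fell by 0.76 under 1 % O2 (log2 -0.76, adjusted p = 3.69e-07). Car6, a secreted form, went from 24.8 ± 6.8 to 12.2 ± 2.4 (log2 -0.94, adjusted p = 0.00467), and Car8, a relative without catalytic activity, from 18.6 ± 2.6 to 10.3 ± 4.3 (log2 -0.87, adjusted p = 0.00226). In 1 % STIM against 5 % STIM 2 of the 12 rose and 3 fell, against 57.4 % of all genes called. Those that rose were Car7 (log2 1.19, adjusted p = 0.000552), at 7.48 ± 4.0 in 5 % STIM and 17.2 ± 5.1 in 1 % STIM, and Car11 (log2 0.30, adjusted p = 0.00773). With stimulation 1 fell under 5 % O2 and 2 under 1 % O2, all of them members described above, and none rose, against 21.4 % and 22.3 % of all genes called. Car4 was listed at 0 in all 24 libraries.

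Calls among genes for proton and bicarbonate exchange went in both directions, as they did over all genes. Of 17 sodium-proton exchangers and their partners, 11 passed the filter, with 3 higher and 4 lower in 1 % CTRL against 5 % CTRL and 1 higher and 5 lower in 1 % STIM against 5 % STIM. That is 7 and 6 of 11, against 59.9 % and 57.4 % of all genes. Slc9a5 rose by log2 0.76 (adjusted p = 3.44e-10) from 215 ± 28 to 364 ± 30, and the scaffold Slc9a3r1 by 0.66 (adjusted p = 2.66e-05) from 66.2 ± 7.2 to 106 ± 17. Slc9a2 changed by -0.63 (adjusted p = 1.56e-09) and the scaffold Slc9a3r2 by -0.59 (adjusted p = 7.18e-14). In stimulated myotubes Slc9a7 was lower under 1 % O2 (log2 -0.55, adjusted p = 0.00635). Stimulation raised 1 and lowered 1 of the 11 under 5 % O2 (21.4 % of all genes called), and lowered 1 under 1 % O2 (22.3 %).

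Of 11 bicarbonate and anion exchangers, 7 passed the filter, with 2 higher and 1 lower in 1 % CTRL against 5 % CTRL and 2 higher and 2 lower in 1 % STIM against 5 % STIM. That is 3 and 4 of 7, against the same 59.9 % and 57.4 % of all genes. The chloride-bicarbonate exchanger Slc4a2 rose by log2 0.26 (adjusted p = 7.76e-08) from 2008 ± 97 to 2405 ± 62, and Slc4a11 by 0.47 (adjusted p = 0.0144) from 31.9 ± 5.3 to 44.6 ± 6.6. The sodium-bicarbonate cotransporter Slc4a7 fell by 0.19 (log2 -0.19, adjusted p = 1.2e-05) and was raised by stimulation under 5 % O2 (log2 0.11, adjusted p = 0.0224). Slc4a3, the chloride-bicarbonate exchanger AE3 of excitable tissue, had 3752 to 4413 normalized counts in 5 % CTRL and 3943 to 4497 in 1 % CTRL. It had 3761 to 4213 in 5 % STIM but 3101 to 3581 in 1 % STIM. All 1 % STIM libraries were below those of the other groups. Stimulation lowered it under 1 % O2 (log2 -0.33, adjusted p = 5.42e-08) and gave 0.01 under 5 % O2 (adjusted p = 0.909), and the difference passed (-0.34, SE 0.057, adjusted p = 6.51e-05). Of 9 receptors for protons and lactate and acid-sensing channels, 1 passed the filter, the channel Asic1, which rose by log2 0.49 (adjusted p = 5.07e-06) without and 0.59 (adjusted p = 2.23e-07) with stimulation under 1 % O2. The lactate receptor Hcar1 was listed at 0 in all libraries of 3 groups and in 4 of the 6 of 1 % CTRL. Neither subunit of the mitochondrial pyruvate carrier, which takes pyruvate away from lactate formation, passed in any comparison (in 1 % CTRL against 5 % CTRL, log2 0.03, adjusted p = 0.572 for Mpc1 and log2 0.03, adjusted p = 0.854 for Mpc2). Uevld, a relative of the dehydrogenases, rose by log2 0.16 (adjusted p = 0.00867) in 1 % CTRL.

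Across the 24 libraries, genes whose log2 values were most like those of a member by Pearson r were listed as a description. The libraries form 4 groups and share size factors, so r follows the group means. For Slc16a3 these were Pgam1 (0.996), Triobp (0.993) and Pfkl (0.991), and for Ldha they were Gm4735 (0.980), Pdk1 (0.976) and P4ha2 (0.973). For Slc16a1 they were Tmem131l (0.978), Slc30a1 (0.976) and Samd8 (0.976), and for Car12 Cpeb2 (0.924), Rhoq (0.922) and Hacd4 (0.901). The nearest to Car3 were Myh8 (0.929), Atp1b2 (0.925) and Lpl (0.897), and to Ldhb Mb (0.845), Armh4 (0.824) and Ube2g2 (0.820). For Car9 they were Mad2l1bp (0.870), Plpp7 (0.845) and Ddx19a (0.831), and for Bsg Rhoa (0.805), Mgarp (0.799) and Gm7536 (0.791). Between members r was 0.944 for Ldha and Slc16a3 and -0.891 for Slc16a1 and Slc16a3, and -0.157 for Car9 and Slc16a3.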

How the data were processed

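RNA from 24 C2C12 myotube cultures, in 4 groups of 6, was sequenced as single-end reads from stranded mRNA libraries. The authors aligned the reads to GRCm38 with STAR 2.5.4b and quantified genes with RSEM 1.3.0 at default parameters (FastQC 0.11.7 for quality, per the submitters' processing notes). Deposited is a signal per gene and library that the authors obtained with DESeq2, each count being scaled by a size factor for depth. A second table, of the authors' own comparisons (log2 fold changes, F, p-values and calls), was not used. Values were whole multiples of a step per library, which gave whole reads for 100 % of values (tests on them are alternatives).

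A gene needed 10 or more normalized counts in 6 or more libraries. The 14541 genes left entered 1 limma 3.58.1 fit of the 4 groups on log2(normalized count + 1), with trend and robust variance, in R 4.3.3. Benjamini-Hochberg adjustment ran over all genes tested. Fold changes are on that log2 scale, which understates the change of genes at low counts. Ratios, computed within each library, were tested between groups by two-sided exact permutation (SciPy 1.17.1). Levels per kb use the union of exons of GENCODE M21, in which 55141 of 55487 identifiers (99.4 %) were found. Promoter sequences are from RefSeq. The fit was tested on simulated data. Libraries held 26541858 to 28173745 reads, and replicate spread includes the counting error.

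The members and gene lists were chosen with earlier results of these data known. Named beside the members were up to 5 further genes of each list with the largest change among those called in a comparison of 2 groups, and for each member the 3 genes of highest r. A gene that this rule names is not reported here by name and stays in all tests and counts. Stretches of promoter printed were chosen after the matches were seen. Alternatives were rescaling to equal library totals, a pseudocount of 10, the compared groups alone, an adjusted p under 0.01, a replicate block, no filter, edgeR 4.0.16 quasi-likelihood and DESeq2 1.42.0 on whole reads, leaving out replicate 1 of 1 % CTRL or, for ratios and chosen after seeing the data, of 5 % STIM, and removing a trend with gene length.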

Additional observations from a re-analysis of the deposited data

Results flagged for a closer look

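In 44 groups of 6 libraries examined, 3 held a library whose gap to the nearest other was large for the range of the group, and chance alone gives about 1 group in 20. Replicate 1 of 5 % STIM had 348 normalized counts of Ldhb against 459 to 520 in the others of the group, and the same library gave a log2 ratio of Ldha to Ldhb of 6.39 against 5.90 to 6.03. Replicate 1 of 1 % CTRL, the library that also stood apart over all genes, had a log2 ratio of Bsg to Emb of 4.62 against 4.83 to 4.96.

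The response to stimulation differed between O2 levels, by the interaction term of limma, for 4 of 29 genes examined, against 11.3 % of all genes tested. Of the 29, 21 had been named for the size of their called changes between groups, so the count is a description. It was more negative under 1 % than under 5 % O2 by -0.47 for Slc16a3 (adjusted p = 0.000716), by -0.19 for Slc16a1 (adjusted p = 0.00481) and by -0.34 for Slc4a3 (adjusted p = 6.51e-05). For Car7 it was more positive by 1.20 (SE 0.40, adjusted p = 0.0471), at 3.04 to 23.8 normalized counts over the stimulated libraries.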

How the results depend on the processing

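Of 392 comparisons of single members with an alternative, 379 kept their side of the threshold, 9 lost the call and 4 gained it. None changed direction where either estimate had passed. Where neither passed, direction was not compared, and some estimates near 0 changed sign. For Bsg in 1 % STIM against 5 % STIM they ran from -0.01 to 0.06. At an adjusted p under 0.01, 3 members in place of 5 were called in 1 % STIM against 1 % CTRL, 1944 in place of 3115 genes in 5 % STIM against 5 % CTRL, and 830 in place of 1645 for the difference between responses. Same-numbered replicates showed little shared deviation: of 36 pairs of libraries, 2 had a correlation over 0.1 (range -0.148 to 0.155). This gave no sign of pairing by number but cannot exclude it, as libraries of different numbers were not compared. With a replicate block in the limma fit 8730 in place of 8708 genes were called in 1 % CTRL against 5 % CTRL, and the members called did not change in number. For the ratios, the replicate block is a sign-flip test of 6 pairs, whose smallest possible p is 0.0312. The 7 comparisons that had passed all sat at that limit, with an adjusted p of 0.0536, so the loss follows from the size of the test and says nothing on their stability: log2 differences of 0.59, 0.47 and -0.24 (Ldha to Ldhb, for 1 % O2 without stimulation, 1 % O2 with it and stimulation under 1 % O2) and of 1.89, -0.25, 1.61 and -0.52 (Slc16a3 to Slc16a1, for 1 % O2 without stimulation, stimulation under 5 % O2, 1 % O2 with stimulation and stimulation under 1 % O2). Without replicate 1 of 1 % CTRL the difference in 1 % STIM against 1 % CTRL was -0.20 for Ldha to Ldhb (adjusted p = 0.0714) and -0.16 for Bsg to Emb (adjusted p = 0.0445). Without replicate 1 of 5 % STIM, a setting chosen after seeing the data, the difference in 5 % STIM against 5 % CTRL was -0.18 for Ldha to Ldhb (adjusted p = 0.00866). Apart from the sign-flip limit, the fewer libraries or the stricter threshold in these settings, the cause was not tested. Depth was at least 26541858 reads in each library and limits mainly genes of a few reads such as Car7 and Hcar1.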
